A study of Mus musculus with 24 samples.

Results

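Mammary glands of female C57BL/6 mice carrying the R96C allele of SOCS2 on both chromosomes (knock-in) were compared between late pregnancy and the virgin state. All arrays labelled with this genotype were taken, 5 from mice at pregnancy day 18 and 7 from virgins 8 weeks old, which is 12 of the 24 arrays of the series. The other 12 arrays are wild type, 5 at day 18 and 7 from virgins of the same age, and serve as a reference for the size of each change. They also enter the filter on dim probes, the choice of each gene's probe and the shared spread behind every SE and limma p-value. RNA came from the whole number 4 inguinal gland after its lymph node had been taken out, and each array holds 1 separately numbered mouse. Both groups carry the knock-in allele, so their contrast reads the stage and not the allele. A probe of this array does not read a single amino acid change, and the genotype was taken from the labels. How old the pregnant mice were is not stated in the labels at hand, so stage and age cannot be told apart. In whole-gland RNA, fewer cells of a type and less RNA per cell also cannot be told apart.

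SOCS2 belongs to the family of SH2-domain proteins that are induced by cytokine and hormone signals and dampen the same signals, and it is best known as a brake on growth hormone signalling through JAK2 and STAT5. In the mammary gland, prolactin uses the same kinase and transcription factor to drive alveolar growth and milk protein transcription. The residue changed in the knock-in lies in the SH2 domain, the part of the protein that binds phosphorylated tyrosine. During pregnancy the fat pad of the virgin gland, which holds a sparse tree of ducts, fills with alveoli whose luminal cells begin to make milk before birth.

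Values are log2 signals after each array's own 75th percentile was subtracted, so a value of 0 is that percentile and each unit is a doubling. They compare a gene between arrays and not 1 gene with another. Between 33374 and 43055 of the 59305 non-control spots per knock-in array were well above background, apart from the virgin mouse 376 with 57003. That array stood apart before any test: its negative-control spots read 331.5 against 20.05 to 41.39 on the other 11, and its median correlation with its group across genes was 0.773 against 0.948 to 0.981. The median absolute deviation of its genes from the group was 1.71 against 0.232 to 0.494 on the other knock-in arrays. The virgin mouse 198 had the lowest luminal epithelium score, the mean log2 signal over the list, at −2.6 against 0.57 to 1.63 in the other 6 virgins. It also had the highest skeletal muscle score, 6.03 against at most 0.62 in the other virgins, and its Krt8 and Krt14 signals, keratins that define the luminal and basal layers, were the lowest of all 12 glands. The day-18 mouse 184 had more spots above background than the other 4 of its group and 2 quality metrics out of range. All 3 arrays were kept, and values without an array are given where it ends a call or moves a value by over 1.5-fold.

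Of 22382 genes tested, 5306 (23.7%) were higher and 4137 (18.5%) lower at day 18, together 42.2%, with limma at an adjusted p under 0.05. The median over all genes was 0.12. Without mouse 376 the same test called 6758 higher (30.2%) and 5532 lower (24.7%), together 54.9%, and 9240 of the 9443 genes were called both times. The list counts below are to be read against the 23.7% and 18.5% of all genes, and those without mouse 376 against 30.2% and 24.7%. With the 12 knock-in arrays alone in the fit, 3423 genes were higher and 3018 lower. In 2919 genes (13% of all) every day-18 gland was above every virgin gland, and in 1361 (6.08%) every one was below. These directions are relative to the array. When arrays were scaled to the 7 spike-in control probes, the median over all genes was −0.78, and 1372 genes were higher against 11644 lower.

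Milk protein genes rose most. All 15 genes on the list of caseins and whey proteins were higher at day 18, with a median difference of 9.98 against 0.12 over all genes, and in all 15 the groups did not overlap. Wap, the whey acidic protein of rodent milk, gave 9.55, 9.93, 9.65, 9.96 and 9.46 in the 5 day-18 glands. Its virgin values were −5.81 at the lowest, −4.33 at the median and −0.89 at the highest. The day-18 glands lay close together and far above the widely spread virgins, and Wap was well above background in 4 of 7 virgins. The difference was 13.44 ± 1.53 (SE, adjusted p = 3.11e-07), about 11100-fold. Csn2, beta casein, had 8.33, 8.61, 8.43, 8.77 and 8.28 at day 18 and −4.68, −3.70 and 0.19 as the lowest, median and highest virgin value. It rose by 11.68 ± 1.51 (adjusted p = 1.76e-06), and the highest virgin, mouse 196, still lay far below the lowest day-18 gland. Csn1s2b, a calcium-sensitive casein, rose by 12.17 ± 0.73 (adjusted p = 1.10e-11), and Csn1s2a, its neighbour in the casein cluster, by 11.88 ± 1.64 (adjusted p = 4.23e-06), or by 12.51 without mouse 196. Csn1s2b was well above background in 4 of 7 virgins, and its highest virgin value, −1.98, was that of mouse 376.

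**Figure D1:**
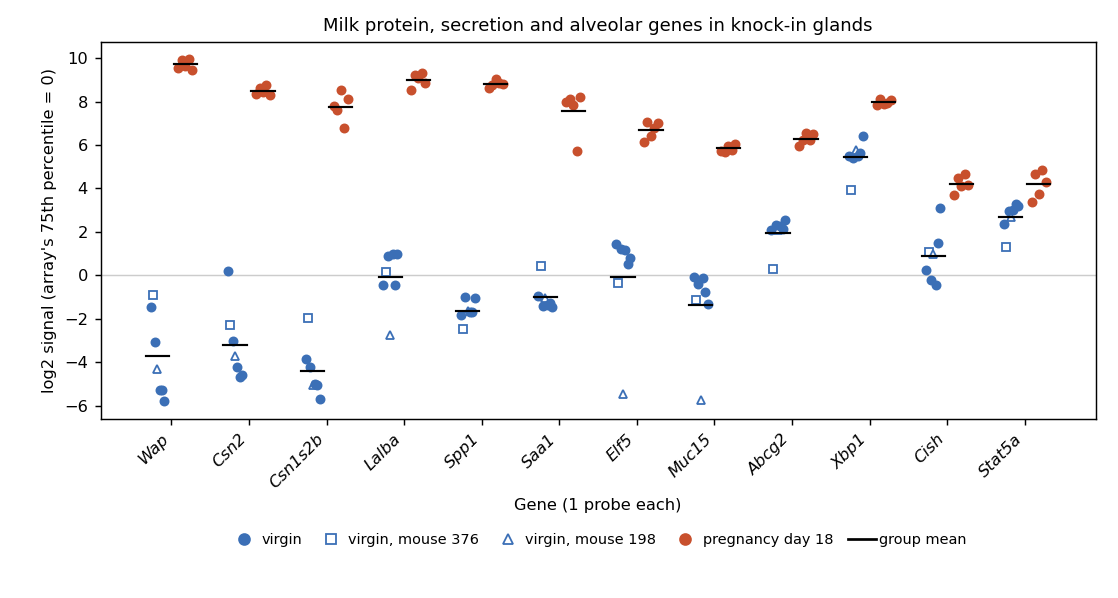
Log2 signal of 12 genes of milk protein synthesis, secretion and alveolar fate in each knock-in gland, with 7 virgins and 5 day-18 glands and a bar at each group mean. The day-18 points of Wap sit between 9.46 and 9.96 while its virgin points spread from −5.81 to −0.89, and mouse 198 (open triangle) is the lowest virgin for Elf5 and Muc15.

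Csn1s1, alpha casein, was well above background in 3 of 7 virgins, so only a bound is given: it rose at least 7280-fold (adjusted p = 2.63e-08). The same holds for Lao1, an L-amino acid oxidase secreted into mouse milk, which rose at least 6010-fold (adjusted p = 4.74e-10). The fitted difference of Csn1s1, which is no bound, was 13.14 and without mouse 196 13.73. Spp1, the secreted phosphoprotein osteopontin, was measured in every gland, with 8.63, 8.78, 9.05, 8.84 and 8.82 at day 18 and −2.45, −1.67 and −1.02 in the virgins. Both groups were tight, and its difference of 10.45 ± 0.38 had the smallest p among the named genes (adjusted p = 2.60e-15). Lalba, the alpha-lactalbumin that turns a galactosyltransferase into lactose synthase, had 8.55, 9.24, 9.10, 9.30 and 8.86 at day 18. The virgin values were −2.76, 0.16 and 1.00, the lowest being mouse 198, and the rise was 9.10 ± 0.58 (adjusted p = 3.36e-11). Cel, the bile salt-stimulated lipase of milk, rose by 9.47 ± 0.39 (adjusted p = 1.44e-14) and Glycam1, a mucin-like milk protein, by 9.98 ± 1.10 (adjusted p = 1.89e-07). The other 5 members, Csn3, Wfdc18, Lpo, Ltf and Trf, rose by 6.36, 6.34, 6.28, 5.63 and 2.16.

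The promoters of these genes are shown because the list moved as 1 block. RefSeq promoters on GRCm38.p6, from 250 bases before to 50 after the start of transcription, were at hand for 12 of the 15 genes. They were searched for TTCNNNGAA, the palindrome bound by STAT5-type factors, which reads the same on both strands. It was found in 4 of the 12 genes, against 9.55% of 27025 genes with a promoter and 8.30% of 32851 promoters. A match is a description of letters and not a binding site, and its absence says only that these letters are not in the window. Csn2 lies at chr5:87699376-87699675 on the minus strand, with the match at position −93 from the start. Csn1s1 lies at chr5:87665958-87666257 on the plus strand, with the match at −100, and Glycam1 at chr15:103565032-103565331 on the minus strand, with the match at −145. In Csn1s2a the match begins 21 bases after the start. Wap, at chr11:6638600-6638899 on the minus strand, had no match and is shown for comparison. Cish, at chr9:107296409-107296708 on the plus strand, is shown as a STAT5-induced gene outside the list and had 2 matches, 1 and 12 bases into the transcript. It was picked from a second list searched in the same way, that of JAK, STAT and SOCS feedback. There 2 of 14 genes with a promoter had a match (14.3%), and Stat5a and Stat3 had none. Each sequence runs 5′ to 3′ with the match in capitals.
Csn2: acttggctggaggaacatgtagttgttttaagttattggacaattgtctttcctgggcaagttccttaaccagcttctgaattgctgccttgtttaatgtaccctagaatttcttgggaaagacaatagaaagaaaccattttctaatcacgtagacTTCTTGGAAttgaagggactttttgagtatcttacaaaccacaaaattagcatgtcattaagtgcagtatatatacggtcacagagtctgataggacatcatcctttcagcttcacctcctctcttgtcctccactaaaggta
Csn1s1: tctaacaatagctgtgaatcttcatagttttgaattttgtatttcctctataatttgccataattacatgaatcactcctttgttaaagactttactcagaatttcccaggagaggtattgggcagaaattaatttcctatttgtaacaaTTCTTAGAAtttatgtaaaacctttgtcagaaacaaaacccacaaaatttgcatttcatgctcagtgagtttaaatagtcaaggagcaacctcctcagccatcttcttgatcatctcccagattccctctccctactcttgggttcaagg
Glycam1: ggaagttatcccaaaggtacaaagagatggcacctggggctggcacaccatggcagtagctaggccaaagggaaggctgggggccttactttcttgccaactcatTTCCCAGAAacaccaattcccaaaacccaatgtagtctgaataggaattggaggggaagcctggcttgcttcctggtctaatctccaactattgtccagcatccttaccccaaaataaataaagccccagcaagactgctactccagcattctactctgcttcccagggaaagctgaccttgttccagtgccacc
Wap: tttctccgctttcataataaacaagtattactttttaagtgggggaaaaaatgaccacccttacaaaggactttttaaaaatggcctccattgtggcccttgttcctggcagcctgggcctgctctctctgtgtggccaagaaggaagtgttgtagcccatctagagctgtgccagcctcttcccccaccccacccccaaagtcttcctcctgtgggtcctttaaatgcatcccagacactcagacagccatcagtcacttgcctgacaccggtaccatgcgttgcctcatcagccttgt
Cish: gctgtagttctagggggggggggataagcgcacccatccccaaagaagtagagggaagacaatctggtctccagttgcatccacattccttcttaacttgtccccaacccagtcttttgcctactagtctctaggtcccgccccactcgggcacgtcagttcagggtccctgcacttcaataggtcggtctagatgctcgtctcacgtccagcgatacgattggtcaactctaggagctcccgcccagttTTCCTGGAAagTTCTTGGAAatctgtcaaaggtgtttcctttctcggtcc

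Genes that wrap and secrete milk fat rose as well. On the list of milk fat globule secretion 11 of 15 were higher and none lower (median 2.89). Muc15, a membrane mucin of the globule, had 5.72, 5.70, 5.96, 5.78 and 6.06 at day 18 and −5.76, −0.76 and −0.09 in the virgins. The groups did not overlap, and it rose by 7.21 ± 0.66 (adjusted p = 1.24e-08), or by 6.48 without mouse 198, its lowest virgin. Muc1, another membrane mucin, rose by 5.55 ± 0.51 (adjusted p = 1.16e-08), Abcg2, the transporter that moves riboflavin and drugs into milk, by 4.34 ± 0.28 (adjusted p = 3.36e-11) and Mfge8, which coats the globule, by 3.28 ± 0.33 (adjusted p = 4.46e-08). Xdh, xanthine oxidoreductase, and Plin2, the droplet coat protein, rose by 3.11 and 3.03, and Btn1a1, butyrophilin, by 0.89. Fabp3, a fatty acid-binding protein of heart, muscle and secretory mammary cells, rose by 8.52 ± 1.03 (adjusted p = 6.84e-07). Its highest virgin value, 4.30, was that of mouse 198, without which the rise was 9.22.

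Of 28 genes of milk fatty acid and triglyceride synthesis 8 were higher and 7 lower, with a median of −0.21, shares near those of all genes (23.7% and 18.5%). Without mouse 376 the counts were 8 and 14, against 30.2% and 24.7% of all genes. Olah, a thioesterase that ends fatty acid chains early and so yields the medium-chain acids of milk, had 7.57, 8.11, 7.55, 7.73 and 7.91 at day 18 and −7.13, −5.10 and 0.95 in virgins, the highest being mouse 376. It rose by 12.63 ± 0.96 (adjusted p = 6.12e-10), or by 13.6 without mouse 376, and was well above background in 4 of 7 virgins. Acsl4, a long-chain acyl-CoA synthetase, rose by 3.80 ± 0.29 (adjusted p = 6.08e-10), and the desaturases Fads1 and Fads2 by 2.6 ± 0.22 (adjusted p = 2.93e-09) and 2.09 ± 0.21 (adjusted p = 5.44e-08). Gpat4, a glycerol-phosphate acyltransferase, rose by 1.64. On the other side, Dgat2 and Dgat1, the last enzymes of triglyceride synthesis, fell by 2.69 and 1.56, Acss2, acetyl-CoA synthetase, by 2.48 and Scd1, a desaturase, by 1.12. Fasn, fatty acid synthase, had −0.40, Acaca, acetyl-CoA carboxylase, 0.37 and Srebf1, their transcriptional regulator, 0.30, none of them called. The white adipocyte list, which shares Dgat2, Lpl and Thrsp with this one, was lower over the same glands, and its part in these values was not tested.

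Cholesterol synthesis had 5 of 23 genes higher and 4 lower (median −0.21), about the shares of all genes, and is no result about the list. Hsd17b7, a sterol ketoreductase, rose by 2.81 ± 0.25 (adjusted p = 7.40e-09), Mvd, mevalonate decarboxylase, by 1.94 ± 0.34 (adjusted p = 6.66e-05) and Sqle, squalene epoxidase, by 1.64 ± 0.32 (adjusted p = 2.37e-04). Nsdhl, a sterol dehydrogenase, fell by 1.52 (adjusted p = 0.0584 with median scaling), Insig1, the sterol-sensing brake, by 1.96 and Hmgcs1 by 1.01.

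For lactose, 7 of 14 genes were higher and 1 lower (median 0.64, but −0.26 with spike-in scaling). B4galt1, the galactosyltransferase of lactose synthase, rose by 3.92 ± 0.30 (adjusted p = 6.78e-10), and Slc2a1, the glucose transporter GLUT1, by 2.34 ± 0.28 (adjusted p = 6.62e-07). Hk1, Galk1, Slc35a2, the UDP-galactose transporter of the Golgi, and Galt rose by 1.03, 0.94, 0.93 and 0.73, and Pgm1 fell by 1.41. Galk1 was not called with median scaling (adjusted p = 0.174) and had 0.03 with spike-in scaling (adjusted p = 0.905). Hk2, the hexokinase of insulin-responsive tissue, had −0.73 and was not called.

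Mineral transport to milk showed 14 of 19 genes higher and 2 lower (median 1.62). Slc34a2, the phosphate transporter of secretory epithelia, was well above background in 0 of 7 virgins and all 5 day-18 glands, and rose at least 26.7-fold (adjusted p = 4.94e-09). Slc39a14 and Slc39a8, importers of zinc and manganese, rose by 4.06 ± 0.20 (adjusted p = 2.96e-13) and 3.88 ± 0.33 (adjusted p = 3.45e-09). The calcium pumps Atp2c2 and Atp2b2, which load calcium into the Golgi and export it across the apical membrane, rose by 5.86 and 5.48, and the zinc exporter of milk vesicles, Slc30a2, by 3.78. Tfrc, the transferrin receptor, rose by 2.62 and Pthlh, the calcium-mobilizing hormone of the lactating gland, by 1.62. Stim1, a sensor of calcium stores, fell by 1.26.

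Amino acid transporters had 9 of 19 higher and 5 lower (median 0.56, but −0.35 with spike-in scaling). The cationic transporters Slc7a4 and Slc7a1 rose by 3.23 ± 0.39 (adjusted p = 5.89e-07) and 1.95 ± 0.26 (adjusted p = 3.06e-06). Slc7a5, the light chain of the large neutral amino acid exchanger, rose by 3.07 ± 0.46 (adjusted p = 1.03e-05), with overlap only through mouse 376, whose −1.17 was above the day-18 value of −1.55. Slc43a1, a leucine transporter, fell by 2.53 ± 0.39 (adjusted p = 1.61e-05).

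The secretory route rose in part. Of 30 genes for the translocon, signal recognition and vesicle coats 18 were higher and 1 lower (median 0.82, but −0.08 with spike-in scaling), and of 25 chaperone and folding genes 9 were higher and none lower (median 0.48, but −0.43 with spike-in scaling). Xbp1, the transcription factor of secretory capacity, had 7.85, 8.12, 7.88, 7.92 and 8.05 at day 18 against 3.93, 5.50 and 6.41 in virgins. The groups did not overlap and the rise was 2.52 ± 0.26 (adjusted p = 6.71e-08). Ssr4 and Ssr2, of the translocon-associated complex, rose by 2.63 ± 0.27 (adjusted p = 8.97e-08) and 1.86 ± 0.30 (adjusted p = 3.31e-05), Sec11c, of the signal peptidase, by 2.47 ± 0.21 (adjusted p = 5.65e-09) and Sec61b, of the channel itself, by 1.78 ± 0.28 (adjusted p = 1.96e-05). Among chaperones Hspa5, the BiP protein, rose by 1.00 and P4hb, a disulphide isomerase, by 1.43, while Hsp90b1, Calr and Canx had 0.37, 0.50 and 0.39 and were not called. Ddit3, the stress factor CHOP, had −0.17. Sec23a, a coat protein, was the 1 member of the route that fell, by 0.77.

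Ribosomal protein genes moved together, with 79 of 83 higher and 2 lower, and in 75 of the 83 the groups did not overlap, against 19.1% of all genes. Their median was 1.16, and 0.85 without mouse 376. Rpl22l1, a paralogue of Rpl22, rose by 1.61 ± 0.28 (adjusted p = 6.64e-05) and Rpl3 by 1.46 ± 0.28 (adjusted p = 1.92e-04). These rises are relative to the array. Over all settings fitted, that of Rpl22l1 ran from 0.70 to 1.74 and that of Rpl3 from 0.56 to 1.59. The 2 that fell, Rpl39l and Rps4l, by 2.18 and 1.18, are minor paralogues and not the common subunits, and near-identical copies of ribosomal genes can share a probe. Oxidative phosphorylation did not follow: 5 of 80 were higher and 2 lower (median 0.16, −0.74 with spike-in scaling). Without mouse 376 the counts were 5 and 20, against 30.2% and 24.7% of all genes, and the median was −0.19. The share of lower calls was then that of all genes. Cox8b, a cytochrome oxidase subunit of muscle and brown fat, fell by 3.87 ± 0.68 (adjusted p = 7.86e-05).

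**Figure D2:**
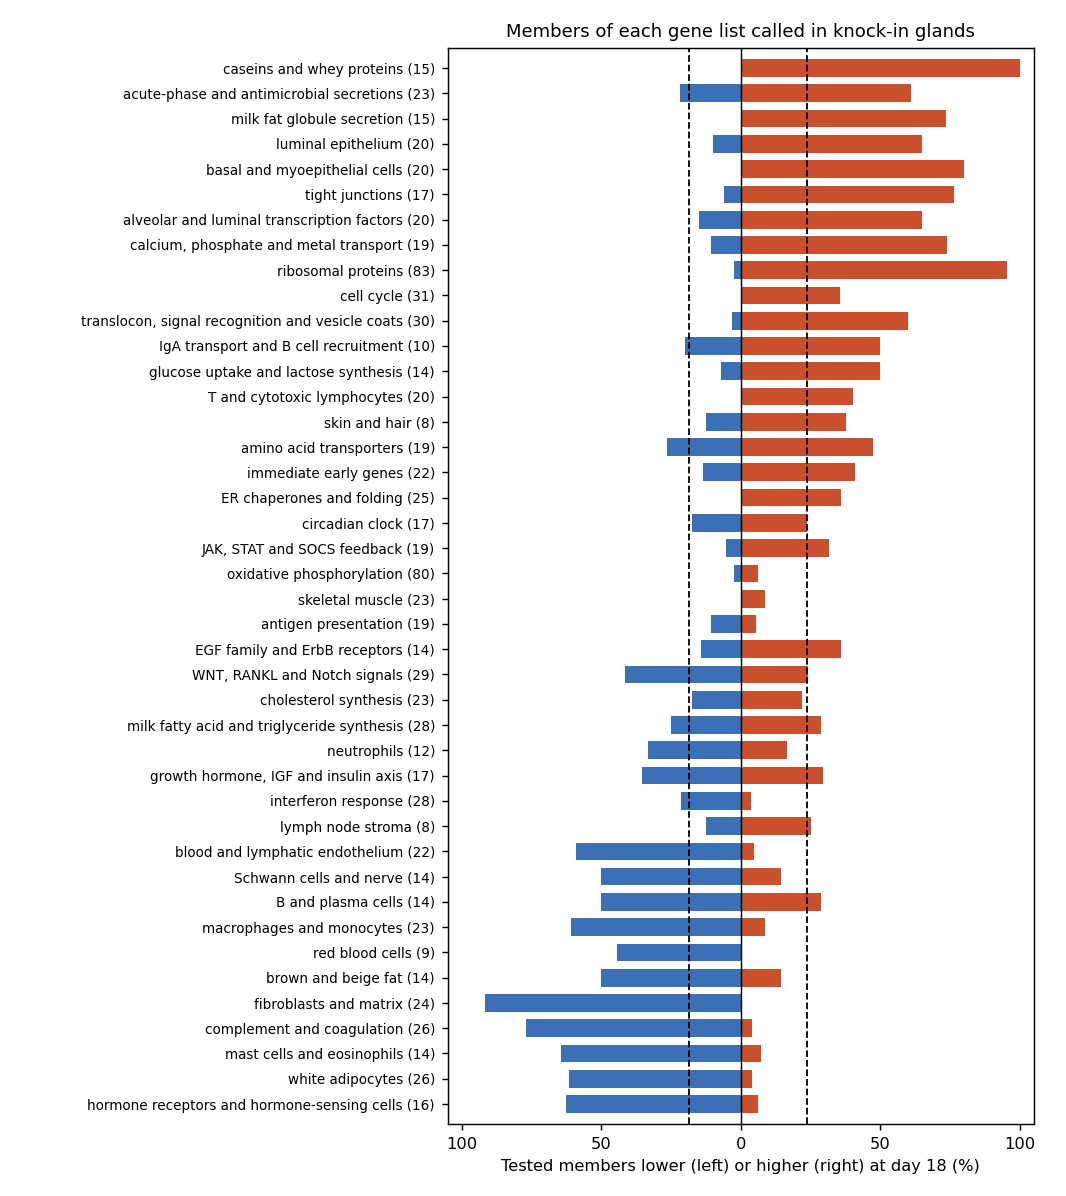
Share of the tested members of each of the 42 gene lists called higher (right) or lower (left) at day 18 in knock-in glands, ordered by the list's median, with the number tested in brackets; dashed lines mark the shares over all genes, 23.7% and 18.5%. Casein and ribosomal lists reach furthest to the right and fibroblast genes furthest to the left.

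Transcription factors of alveolar and luminal cells were mostly higher, 13 of 20, with 3 lower (median 1.82). Elf5, which specifies the secretory alveolar lineage downstream of prolactin, had 6.12, 7.05, 6.4, 6.80 and 6.99 at day 18 and −5.46, 0.78 and 1.46 in virgins. The 6 virgins other than mouse 198 lay between −0.36 and 1.46, all far below day 18. The rise was 6.77 ± 0.79 (adjusted p = 4.55e-07), or 109-fold, and 5.87 without mouse 198. Cited4, a coactivator, rose by 5.08 ± 0.41 (adjusted p = 1.43e-09), Sox10, a factor of mammary progenitors as well as of Schwann cells, by 4.02 ± 0.37 (adjusted p = 1.50e-08) and Id2, needed for alveolar growth, by 2.48 ± 0.29 (adjusted p = 4.21e-07). Ehf, Tfap2c, Sox9 and Gata3 rose by 4.85, 4.44, 3.76 and 1.99. The 3 that fell were Foxa1 and Tbx3, factors of hormone-sensing luminal cells, by 3.65 and 1.67, and Hey1, a Notch target, by 2.11.

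Epithelial markers were higher in both layers. The luminal list had 13 of 20 higher and 2 lower (median 2.68), the basal and myoepithelial list 16 of 20 higher and none lower (median 1.94), and the tight junction list 13 of 17 higher and 1 lower (median 1.82). The luminal score was 2.36 to 3.18 in the 5 day-18 glands and −2.6 to 1.63 in the virgins, without overlap. Among luminal genes Cldn7, a claudin, rose by 4.25 ± 0.52 (adjusted p = 8.06e-07), the splicing factors Esrp1 and Esrp2 by 4.08 ± 0.39 (adjusted p = 2.62e-08) and 4.05 ± 0.50 (adjusted p = 9.71e-07), and Cd14, a lipopolysaccharide receptor, by 3.84 ± 0.30 (adjusted p = 1.02e-09). Cd14 is also on the macrophage and acute-phase lists. Krt8, the simple-epithelium keratin, had 6.23, 6.70, 6.06, 7.13 and 6.2 at day 18 and −1.13, 5.21 and 5.99 in virgins. The highest virgin lay just under the lowest day-18 gland, and mouse 198 stood alone at the bottom. The difference of 2.09 ± 0.81 (adjusted p = 0.0418) was 1.17 (adjusted p = 0.0231) without mouse 198 and 2.02 (adjusted p = 0.0551) without mouse 376, and leaving out any 1 day-18 array also ended the call. Krt18, its partner, had 1.87 and was not called. Prom1 and Areg, both of hormone-sensing luminal cells, were the 2 that fell.

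In the basal layer Krt14, its defining keratin, had 4.29, 4.63, 4.10, 4.79 and 4.16 at day 18 and −2.25, 2.75 and 3.43 in virgins, without overlap. It rose by 2.66 ± 0.69 (adjusted p = 0.00308), or by 2.0 without mouse 198. Lamb3, a chain of basement membrane laminin, rose by 4.06 ± 0.43 (adjusted p = 1.17e-07), Itga6, an integrin, by 2.81 ± 0.34 (adjusted p = 6.65e-07), and the contractile genes Myh11 and Mylk by 2.40 ± 0.30 (adjusted p = 1.11e-06) and 1.87 ± 0.25 (adjusted p = 2.27e-06). Acta2, smooth muscle actin, and Cnn1, calponin, rose by 2.74 and 3.02, and Oxtr, the oxytocin receptor of milk ejection, by 1.42. Tjp3 and Cgn, on the cytoplasmic face of tight junctions, rose by 4.42 and 4.38, and Cldn8 by 5.38, while Cldn10 fell by 2.39.

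Hormone-sensing cells and their receptors went the other way, with 10 of 16 genes lower and 1 higher (median −1.71). Esr1, the oestrogen receptor, had 1.02, 0.13, 0.92, −0.21 and 1.18 at day 18 and 0.65, 2.74 and 3.04 in virgins. The lowest virgin was mouse 376, and the other 6, at 2.41 and above, did not overlap day 18. The fall was 1.87 ± 0.32 (adjusted p = 6.33e-05). Pgr, the progesterone receptor, had −2.77, −3.35, −2.15, −3.05 and −1.88 against −2.09, −0.75 and 1.5, overlapping only through mouse 198, and fell by 2.03 ± 0.53 (adjusted p = 0.00344). Cited1, a coactivator of hormone-sensing ductal cells, fell by 3.88 ± 0.76 (adjusted p = 2.57e-04) and Foxa1 by 3.65. Cited2 was the 1 that rose, by 1.94 ± 0.28 (adjusted p = 6.30e-06).

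Prlr, the prolactin receptor, turned on single arrays. It had 2.92, 3.56, 3.19, 3.45 and 3.2 at day 18 and −0.28, 4.74 and 4.87 in virgins. Mice 198 and 376 had −0.28 and 1.72, below every day-18 gland, and the other 5 virgins, at 3.65 to 4.87, lay above every one. With all arrays the difference was −0.21 ± 0.70 (adjusted p = 0.843), and without mice 376, 198 and 184 it was −1.29 (adjusted p = 0.0253). In wild-type glands it was −1.41 (adjusted p = 0.113) in the fit with all arrays. The shared spread of that fit includes mouse 376, so its p-value is not comparable with that of the smaller fit.

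**Figure D3:**
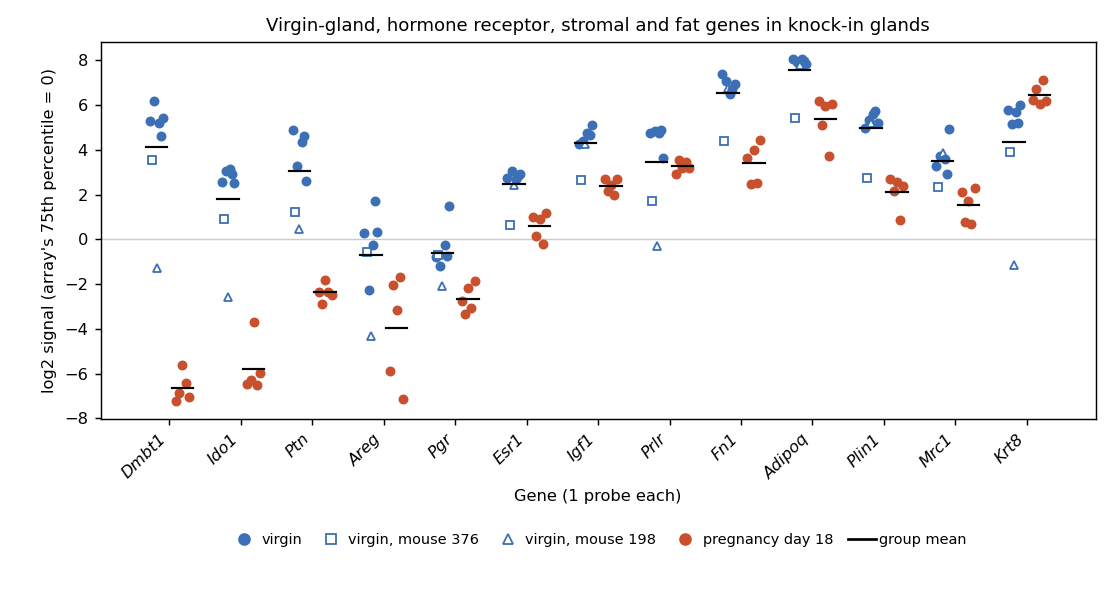
Log2 signal of 13 genes of the virgin gland, of hormone reception, stroma and fat in each knock-in gland, with 7 virgins and 5 day-18 glands and a bar at each group mean. Esr1 in the virgins other than mouse 376 (open square) lies at 2.41 and above, clear of the day-18 glands, whereas Prlr and Krt8 have mouse 198 (open triangle) as the lowest of all 12 glands.

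The knock-in alters a feedback inhibitor of JAK2 and STAT5, so this pathway was listed apart. Of 19 genes 6 were higher and 1 lower (median 0.21, −0.70 with spike-in scaling). Socs2 itself was not called. Its brightest probe had 1.79, 1.60, 1.76, 2.12 and 2.12 at day 18 and 0.73, 1.22 and 3.01 in virgins, a difference of 0.45 ± 0.39 (adjusted p = 0.372). The day-18 glands lay inside the virgin range, whose top was mouse 384. The other 3 Socs2 probes, all well above background on the 12 arrays, differed by 0.29, −0.27 and −0.25, and none of the 4 separated the stages by an exact two-sided permutation test over all splits of the 12 arrays (p = 0.245 for the first, then 0.494, 0.456 and 0.515).

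Cish, the feedback inhibitor that STAT5 induces most directly, had 3.72, 4.47, 4.09, 4.67 and 4.15 at day 18 and −0.46, 0.97 and 3.09 in virgins. Every day-18 gland was above the highest virgin, again mouse 384, and the rise was 3.34 ± 0.48 (adjusted p = 7.74e-06), or 10.1-fold. Stat5a had 3.37, 4.68, 3.73, 4.85 and 4.28 against 1.29, 2.96 and 3.26, and rose by 1.5 ± 0.29 (adjusted p = 2.50e-04) without overlap. Stat3, the STAT of leukaemia inhibitory factor and interleukin-6, rose by 1.55 ± 0.31 (adjusted p = 3.61e-04) but had 0.68 (adjusted p = 0.0523) as the median over its probes, and Socs3, Socs7 and Jak3 by 1.05, 0.79 and 0.57. Socs1, a strong inhibitor of JAK kinases, fell by 1.36 ± 0.27 (adjusted p = 2.79e-04), without overlap, and was not called with quantile normalization (adjusted p = 0.0972) or median scaling (adjusted p = 0.0817). Stat5b and Jak2 had 0.63 and 0.21 and were not called.

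The growth hormone and IGF axis moved in both directions, 5 of 17 higher and 6 lower (median −0.42), against 23.7% and 18.5% of all genes. When mouse 376 was left out the counts were 5 and 9, against 30.2% and 24.7%. Igf1, the local growth factor induced by growth hormone, had 2.68, 2.17, 2.42, 2.0 and 2.71 at day 18 and 2.64, 4.38 and 5.12 in virgins. Apart from mouse 376 the virgins, at 4.25 and above, were well clear of day 18, and the fall was 1.90 ± 0.28 (adjusted p = 1.01e-05). This is the brightest of 3 probes, and as the median over the probes the difference was −0.28 (adjusted p = 0.218). Ghr, its upstream receptor, had 3.84, 3.08, 4.21, 2.33 and 4.09 against 3.15, 4.80 and 5.50 and fell by 1.22 ± 0.35 (adjusted p = 0.00701), with an adjusted p of 0.193 under median scaling and 0.054 with the 12 knock-in arrays alone. Igfbp4 and Igfbp6, which bind and hold back IGFs, fell by 2.10 ± 0.27 (adjusted p = 1.90e-06) and 2.14 ± 0.44 (adjusted p = 4.05e-04), while Igfals, the acid-labile subunit of the circulating IGF complex, rose by 2.68 ± 0.21 (adjusted p = 7.49e-10) and Igfbp2 by 2.73. Insr, the insulin receptor, and Grb10, its inhibitor, fell by 0.71 and 0.78, and Irs2 rose by 1.60.

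EGF-family genes had 5 of 14 higher and 2 lower (median 0.03), against 23.7% and 18.5% of all genes. Without mouse 376 4 were lower, against 24.7% of all genes, and the counts are no result about the list. Egf rose by 3.06 ± 0.54 (adjusted p = 8.12e-05), and the receptors Erbb3 and Erbb2 by 1.65 ± 0.44 (adjusted p = 0.00385) and 1.22. Erbb4, the receptor that works through STAT5 in the alveolus, rose by 0.62 ± 0.16 (adjusted p = 0.0033), without overlap, but had −0.29 with spike-in scaling. Nrg4, a ligand made by fat cells, fell by 3.54 ± 0.47 (adjusted p = 2.47e-06). Areg, amphiregulin, the ligand of oestrogen-driven duct growth, had −5.86, −2.03, −3.14, −1.70 and −7.13 at day 18 and −4.31, −0.25 and 1.72 in virgins. The groups overlapped, 3 of the 5 day-18 arrays were above background, and it fell by 3.25 ± 0.91 (adjusted p = 0.00602), by 3.85 without mouse 198 and by 2.46 without mouse 183.

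Of 29 WNT, RANKL and Notch genes 7 were higher and 12 lower (median −0.06), against 23.7% and 18.5% of all genes, so the share of higher calls was that of all genes. Tnfrsf11a, the receptor RANK, had 4.05, 4.44, 3.31, 4.47 and 3.98 at day 18 against −0.47, 0.95 and 1.36, without overlap, and rose by 3.29 ± 0.26 (adjusted p = 1.03e-09). Wnt5b rose by 3.83 ± 0.44 (adjusted p = 3.59e-07) and Notch1 by 1.92. Wnt2 and Wnt5a, ligands of the stroma, fell by 3.36 ± 0.44 (adjusted p = 2.07e-06) and 1.64 ± 0.25 (adjusted p = 1.74e-05), and Sfrp4 and Sfrp2, secreted WNT antagonists, by 3.90 ± 0.80 (adjusted p = 4.15e-04) and 1.66. Without mouse 210 or 239 the fall of Sfrp4 was 3.11 or 3.30. Axin2, a target of canonical WNT signalling, fell by 1.80.

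Stroma and fat were lower. In the fibroblast and matrix list 22 of 24 genes fell and none rose (median −1.61). Fn1, fibronectin, had 3.64, 2.46, 3.98, 2.52 and 4.43 at day 18 and 4.40, 6.76 and 7.38 in virgins. The overlap came through mouse 376, the other virgins being at 6.50 and above, and the fall was 3.13 ± 0.42 (adjusted p = 2.72e-06). Pi16, a marker of adventitial fibroblasts, fell by 3.23 ± 0.51 (adjusted p = 2.39e-05), Lum, lumican, by 2.12 ± 0.33 (adjusted p = 1.71e-05) and Col5a2, a fibrillar collagen, by 1.86 ± 0.27 (adjusted p = 7.23e-06), whereas the bulk collagens Col1a1 and Col3a1 fell by 0.92 and 0.85, and Col1a2 and Sparc, at −0.83 and 0.14, were not called. The fibroblast score was 2.58 and 2.66 in day-18 mice 210 and 239 and 3.53 to 3.90 in the other 3 of the group, while their luminal scores, 2.91 and 3.18, were the highest 2 of the day-18 glands.

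White adipocyte genes had 16 of 26 lower and 1 higher (median −1.68), and 23 lower without mouse 376. Adipoq, adiponectin, had 6.2, 5.09, 5.94, 3.73 and 6.03 at day 18 and 5.44, 7.91 and 8.06 in virgins, and fell by 2.18 ± 0.40 (adjusted p = 1.39e-04). Mouse 376 was again the low virgin, the other 6 being at 7.79 and above. Plin1, the coat of large fat droplets, had 2.70, 2.16, 2.56, 0.85 and 2.38 against 2.76, 5.20 and 5.74, without overlap, and fell by 2.84 ± 0.38 (adjusted p = 2.48e-06). Adrb3, the fat-cell adrenergic receptor, fell by 2.99 ± 0.34 (adjusted p = 3.56e-07). Lep, leptin, had −1.21, −1.01, −0.97, −1.42 and −1.40 at day 18 and −1.62, −1.26 and −0.57 in virgins, a difference of −0.01 ± 0.17 (adjusted p = 0.97) in the middle of a list that was mostly lower. Mest, an imprinted gene of growing fat, was the 1 that rose, by 1.00.

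Brown and beige fat genes had 7 of 14 lower and 2 higher (median −1.24), and the 2, Fabp3 and Cidea, are also milk fat genes. Ucp1, the uncoupling protein, ranged from −4.22 through 0.08 to 4.92 in virgins and had −6.12, −4.13, −0.09, −2.93 and −5.88 at day 18. The groups overlapped widely, and the fall of 4.19 ± 1.37 (adjusted p = 0.0162) lost its call without mouse 211 (adjusted p = 0.0517) or mouse 183 (adjusted p = 0.0514), and was 3.43 without mouse 198, 4.95 without mouse 384 and 5.13 without mouse 184. Ppargc1a, its coactivator, fell by 2.14 ± 0.36 (adjusted p = 5.27e-05) and Ebf2, a brown fat factor, by 2.85 ± 0.39 (adjusted p = 4.31e-06).

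Vessel and nerve genes were lower to a smaller degree. Blood and lymphatic endothelium had 13 of 22 lower and 1 higher (median −0.69). Tek and Vwf, of blood vessels, fell by 1.80 ± 0.33 (adjusted p = 1.43e-04) and 1.34 ± 0.26 (adjusted p = 2.59e-04), the call of Vwf ending with median scaling (adjusted p = 0.124) and with the median over probes (adjusted p = 0.0951), while Cdh5 and Kdr, at −0.21 and −0.46, were not called. Prox1, a lymphatic factor, was above background in 3 of 7 virgins and rose at least 7.33-fold (adjusted p = 2.62e-05). Lyve1, another lymphatic marker that is also on the macrophage list, fell by 2.83. Schwann cell and nerve genes had 7 of 14 lower and 2 higher, Sox10 and Mbp (median −0.92). S100b, a calcium-binding protein of Schwann cells, fell by 2.80 ± 0.34 (adjusted p = 7.02e-07).

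Among immune cells, 14 of the 23 tested macrophage and monocyte genes were lower and 2 higher (median −1.14). Mrc1, the mannose receptor of resident macrophages, had 2.11, 0.78, 1.72, 0.67 and 2.31 at day 18 and 2.34, 3.57 and 4.93 in virgins, just without overlap, and fell by 2.0 ± 0.37 (adjusted p = 1.28e-04). Ccr2, of recruited monocytes, fell by 1.82 ± 0.29 (adjusted p = 2.28e-05), and Timd4 and Cd163, both scavenger receptors, by 3.15 and 1.93. Cx3cr1, a marker of the macrophages that line ducts, rose by 1.76 ± 0.23 (adjusted p = 1.93e-06). The other higher gene, Cd14, is also on the luminal list. Mast cell and eosinophil genes had 9 of 14 lower and 1 higher (median −1.67), with the protease genes Cma1 and Tpsb2 lower by 2.87 ± 0.55 (adjusted p = 1.93e-04) and 2.30 ± 0.45 (adjusted p = 2.29e-04). The 1 higher, Kit, is also on the luminal list. Neutrophil genes had 2 of 12 higher, Ltf and S100a8, and 4 lower, among them Ly6g, the defining surface marker, by 2.13 ± 0.43 (adjusted p = 3.28e-04).

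Lymphocyte genes moved little or apart. T and cytotoxic cells had 8 of 20 higher and none lower (median 0.61, −0.29 with spike-in scaling). Gzmb, a granzyme, rose by 1.37 ± 0.36 (adjusted p = 0.00344), Cd247, the T cell receptor zeta chain, by 0.96 ± 0.31 (adjusted p = 0.0141) and Cd3e by 0.76 ± 0.20 (adjusted p = 0.00324), but with spike-in scaling none of the 3 was called, at 0.47, 0.06 and −0.14. B and plasma cell genes had 4 of 14 higher and 7 lower (median −1.04). Jchain, which joins IgA for export into milk, had 3.77, 3.27, 3.39, 1.88 and 4.08 at day 18 and −2.0, −1.17 and 0.93 in virgins, without overlap, and rose by 4.20 ± 0.53 (adjusted p = 1.37e-06). Mzb1 and Pou2af1, of antibody-secreting cells, rose by 2.74 and 2.14, and so did Pax5, a factor of B cells before they secrete antibody, by 2.90 ± 0.52 (adjusted p = 1.10e-04). Ms4a1, a mature B cell gene, fell by 2.05, and so did Irf4, a factor of plasma cells, by 2.47 ± 0.46 (adjusted p = 1.65e-04), so members of both kinds moved in both directions. On the list of IgA transport and recruitment 5 of 10 were higher and 2 lower (median 0.65, −0.26 with spike-in scaling). Madcam1, the vascular addressin, rose at least 5.59-fold (adjusted p = 3.78e-04; fitted difference 3.67, and 4.38 without mouse 376). Pigr, the receptor that carries IgA across epithelium, rose by 1.41 ± 0.40 (adjusted p = 0.00642), and its call ended with quantile normalization, median scaling and spike-in scaling (adjusted p = 0.125, 0.106 and 0.244). Ccl28, the chemokine that draws IgA cells, had 1.92 and was not called.

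Secreted defence proteins were among the steepest changes. Of 23 acute-phase and antimicrobial genes 14 were higher and 5 lower (median 3.2). Saa1 and Saa2, serum amyloids, rose by 8.59 ± 0.40 (adjusted p = 1.26e-13) and 12.03 ± 0.83 (adjusted p = 1.27e-10). Saa1 had 8.00, 8.12, 7.85, 5.74 and 8.19 at day 18, mouse 239 being lowest, and −1.44, −1.29 and 0.41 in virgins. Lpo, lactoperoxidase, rose by 6.28 ± 0.57 (adjusted p = 1.05e-08), or 6.87 without mouse 376, Lcn2, a siderophore-binding protein, by 6.18 and Ltf, lactoferrin, by 5.63 ± 1.02 (adjusted p = 1.17e-04), or 4.74 without mouse 198. Dmbt1, a mucosal scavenger-receptor glycoprotein, went the other way with −7.24, −6.84, −5.60, −6.4 and −7.03 at day 18 and −1.29, 5.19 and 6.17 in virgins. It was well above background in all 7 virgins and none of the day-18 glands, and fell at least 380-fold (adjusted p = 1.14e-08; fitted difference −10.76, and −11.66 without mouse 198). Hp, haptoglobin, and Serpina3n fell by 2.12 and 2.04.

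Complement and coagulation genes had 20 of 26 lower and 1 higher (median −1.67), including the proteases C1ra and C1s1, by 1.83 ± 0.32 (adjusted p = 6.84e-05) and 2.07 ± 0.36 (adjusted p = 6.49e-05), and Plat, the tissue plasminogen activator, by 2.79 ± 0.34 (adjusted p = 7.18e-07). C3, the central component, had 0.38 and was not called. Interferon-response genes had 1 of 28 higher and 6 lower (median −0.61), against 23.7% and 18.5% of all genes. The share of lower calls was close to that of all genes, and the share of higher calls was below it. Without mouse 376 the counts were 2 and 11, against 30.2% and 24.7% of all genes. The share of lower calls was then above that of all genes. Ifit3 fell by 1.58 ± 0.50 (adjusted p = 0.0144, and 0.158 with median scaling), Cmpk2 rose by 2.17 ± 0.35 (adjusted p = 3.29e-05), and the calls of Mx2 and Oas3 ended without mouse 376 (adjusted p = 0.0548 and 0.0666) and without any of several other arrays, up to an adjusted p of 0.0881 and 0.141 without mouse 210. Antigen presentation had 1 of 19 higher, Tap2, and 2 lower (median 0.07). Without mouse 376 the counts were 2 and 5, against the same 30.2% and 24.7%.

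Of 31 cell cycle genes 11 were higher and none was lower (median 0.82, −0.09 with spike-in scaling). Mki67, the proliferation antigen, had 2.03, 2.87, 3.11, 3.80 and 2.44 at day 18 and −0.92, 0.55 and 2.64 in virgins. Virgin mouse 196 was inside the day-18 range, and the rise was 2.33 ± 0.52 (adjusted p = 9.60e-04). Cdc20 and Ccnb2, of mitotic exit and entry, rose by 2.07 ± 0.46 (adjusted p = 8.88e-04) and 1.84 ± 0.49 (adjusted p = 0.00367). The other called genes included Plk1, Aurka and Birc5 of mitosis, and the replication factors Mcm2, Mcm3, Mcm4, Mcm5 and Pcna had 0.27, −0.18, −0.13, 0.21 and 0.27 and Ccnd1, cyclin D1, had −0.21, none of them called.

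Clock genes had 4 of 17 higher and 3 lower (median 0.36, −0.55 with spike-in scaling), the shares of all genes, so the list as a whole gave no result. Hlf, an output factor, rose by 3.24 ± 0.38 (adjusted p = 4.87e-07), Rora by 1.81 ± 0.28 (adjusted p = 1.55e-05), although its probes were called in opposite directions, and Per1 by 1.32 ± 0.36 (adjusted p = 0.00456). Cry2 and Nr1d1 fell by 1.08 ± 0.34 (adjusted p = 0.013) and 1.47. With median scaling neither Per1 nor Cry2 was called (adjusted p = 0.0852 and 0.309). No label at hand gives the hour of dissection. Immediate early genes had 9 of 22 higher and 3 lower (median 0.48, −0.42 with spike-in scaling). Myc, the growth regulator, had 1.27, 1.43, 1.59, 2.06 and 1.75 against −0.42, −0.19 and 0.34, without overlap, and rose by 1.76 ± 0.17 (adjusted p = 2.44e-08). Klf4 and Klf2 fell by 1.5 ± 0.26 (adjusted p = 8.27e-05) and 1.68 ± 0.29 (adjusted p = 6.72e-05), and Klf4 had no value on the array of mouse 376. Fos rose by 1.00 and Egr1 had −0.51 and was not called.

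Skeletal muscle and lymph node scores overlapped between the stages. The muscle list had 2 of 23 higher, Tpm2 and Mb, and both lost their call without mouse 376 (adjusted p = 0.076 and 0.0721) and without most other single arrays, up to an adjusted p of 0.0874 and 0.0858 without mouse 211. Tpm2 rose by 1.64, by 2.26 without mouse 198, and had −0.21 within slide 2. The muscle score ran from −2.05 to 6.03 in virgins and from −3.26 to 4.22 at day 18, and Acta1, skeletal actin, had 7.5, 2.90, 6.18, 1.53 and 2.18 at day 18 and 0.42, 1.22 and 8.93 in virgins, 8.93 being mouse 198. Skin and hair genes had 3 of 8 higher and 1 lower (median 0.56, −0.35 with spike-in scaling). Lymph node stroma had 2 of 8 higher and 1 lower (median −0.62), near the 23.7% and 18.5% of all genes. The 2, Clu and Madcam1, are also genes of other tissues of the gland, and the follicle genes Cxcl13 and Fcer2a had −1.19 and −1.12 and were not called. Of 9 red blood cell genes 4 were lower (median −1.15), and 7 without mouse 376. Their score was 1.03 to 2.80 in the virgins and 0.46 to 0.83 at day 18, without overlap. The skin and hair score was −1.48 to −0.34 at day 18 and at most −1.55 in the virgins other than mouse 376, which had −0.15.

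**Figure D4:**
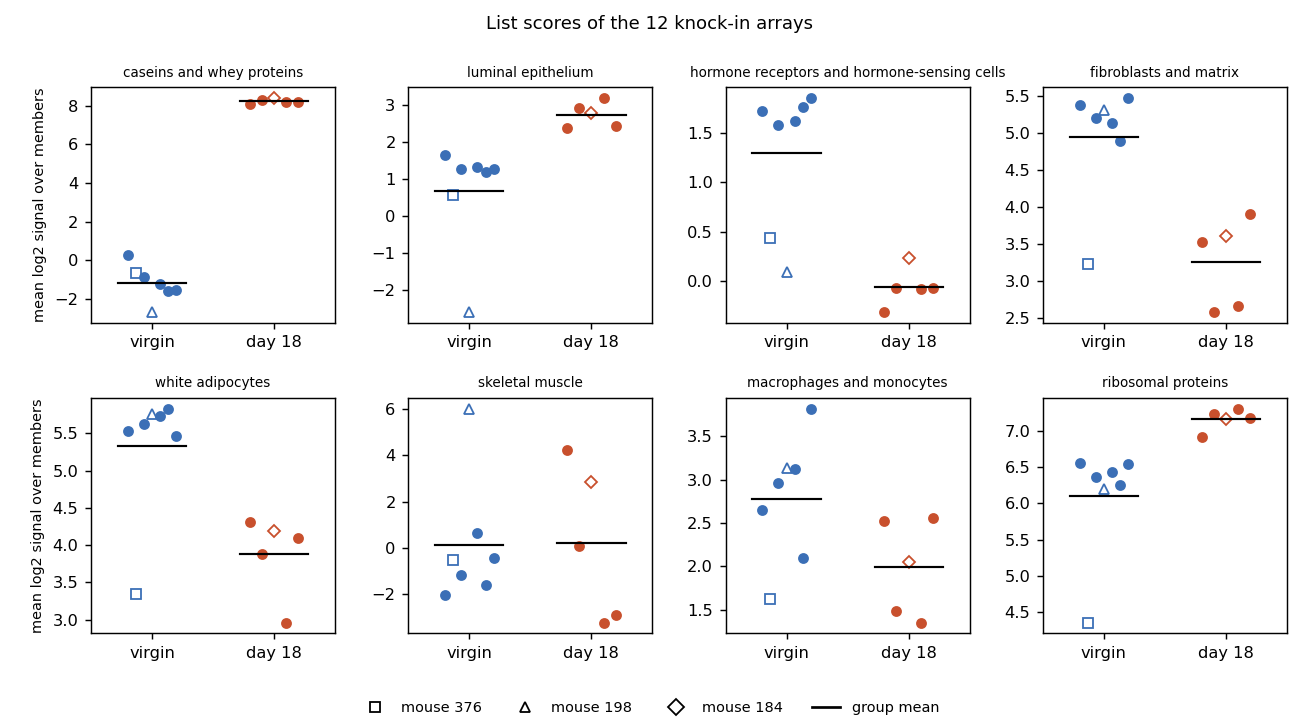
Mean log2 signal over the members of 8 gene lists in each knock-in gland, virgins (7) left and day 18 (5) right, with a bar at each group mean. Casein and ribosomal scores separate the stages, while the muscle score spreads from −2.05 to 6.03 in virgins, with mouse 198 (triangle) at the top.

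Beyond the lists, the genes with the largest rises among those measured in both stages included Bcl2l15, a BCL2-family member, at 9.61 ± 0.65 (adjusted p = 8.72e-11; 10.22 without mouse 376), Wfdc3, of the whey acidic protein family, at 10.52 ± 0.80 (adjusted p = 6.08e-10; 11.25 without mouse 196) and Slc28a3, a nucleoside transporter, at 8.54 ± 0.49 (adjusted p = 5.83e-12). Bcl2l15 was well above background in 4 of 7 virgins, and its highest virgin value, −0.73, was that of mouse 376. Sftpd, surfactant protein D, rose at least 1670-fold (adjusted p = 1.48e-07), Chrdl2, a BMP antagonist, at least 902-fold (adjusted p = 2.56e-09) and Gjb6, connexin 30, at least 559-fold (adjusted p = 3.93e-09). Each of the 3 was above background in 2 or 3 of 7 virgins. Their fitted differences, which are no bounds, were 11.67, 10.54 and 10.56, and 12.35, 11.22 and 11.33 without mouse 376. For Sftpd it was 12.35 without mouse 196 and 11.07 without mouse 313. Ptn, the growth factor pleiotrophin, led the falls among genes measured in both stages. It had −2.33, −2.88, −1.81, −2.35 and −2.48 at day 18 and 0.48, 3.26 and 4.89 in virgins, without overlap, and fell by 5.43 ± 0.59 (adjusted p = 1.85e-07).

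Ido1, the tryptophan-degrading dioxygenase, had −6.44, −6.29, −3.67, −6.49 and −5.96 at day 18, none well above background, and −2.58, 2.56 and 3.14 in virgins. It fell at least 74.6-fold (adjusted p = 3.87e-06; fitted difference −7.55, and −8.28 without mouse 198). Fam25c fell at least 56.3-fold (adjusted p = 4.84e-07; fitted difference −7.31, and −8.34 without mouse 184), Crym, a thyroid hormone-binding protein, at least 27.9-fold (adjusted p = 9.30e-08) and Abcc8, the sulphonylurea receptor, at least 15.7-fold (adjusted p = 2.85e-09). Pon1, paraoxonase, fell by 4.87 ± 0.53 (adjusted p = 1.58e-07; 4.23 without mouse 239), Acsm3, a medium-chain acyl-CoA synthetase, by 4.53 ± 0.55 (adjusted p = 7.04e-07; 3.81 without mouse 239), Ces1f, a carboxylesterase, by 4.03 ± 0.49 (adjusted p = 7.01e-07) and Ptger3, a prostaglandin E receptor, by 3.94 ± 0.40 (adjusted p = 5.96e-08).

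Are these stage changes particular to the knock-in? The test of the difference between genotypes called 0 of 22382 genes (limma, smallest adjusted p = 1.00), 217 genes (0.97%) had an unadjusted p under 0.05, and without mouse 376 the counts were 0 and 1199 (5.36%, smallest adjusted p = 0.877). With no difference in any gene, a share of about 0.05 would pass that unadjusted threshold, so the test with all arrays is too strict. The median SE of the difference was 0.406 with mouse 376 and 0.281 without it. The absence of calls does not show that the genotypes change alike. Of the 9443 genes called in knock-in glands 7729 (81.8%) were also called in wild-type glands, which is 84.6% of the wild-type calls, and 0 had the opposite sign (3 without mouse 376). In wild-type glands 21.6% of genes were higher and 19.3% lower. The 2 stage contrasts share no arrays, but they share the estimate of the spread. Across genes, which are not independent replicates, their log2 differences had a Pearson correlation of 0.95 and a slope of 0.939 of knock-in on wild type. Milk protein differences in the knock-in fit had Wap at 13.44 against 10.08 in wild type and Csn2 at 11.68 against 9.07. The limma test of these differences gave unadjusted p-values of 0.133 and 0.235, and neither was called. At day 18 the mean of Csn2 was 8.49 in knock-in and 8.48 in wild-type glands. Its virgin means were −3.19 (SD 1.72) in knock-in and −0.59 (SD 4.79) in wild type, so its 2 stage differences part in the virgins and not at day 18.

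**Figure D5:**
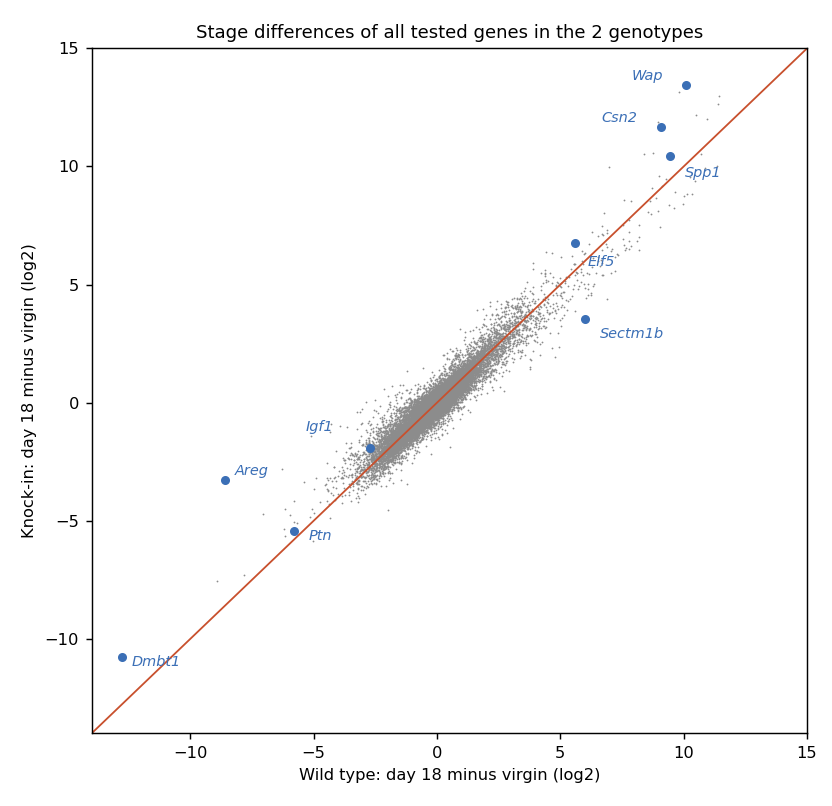
Each grey point is 1 of 22382 genes, with the log2 difference of day 18 minus virgin in wild-type glands on the horizontal axis and in knock-in glands on the vertical axis, and the line marks equal values. The cloud follows the line, with Wap at 10.08 and 13.44 and Igf1 at −2.73 and −1.90. Areg was well above background in 1 of 5 wild-type day-18 glands, so its place on the horizontal axis is not exact.

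The 5 genes of smallest p for the difference were Areg, Ttll8, Scgb2b20, Gm33272 and Sectm1b, and each had an adjusted p of 1.00. Areg was well above background in 3 of 5 knock-in and 1 of 5 wild-type glands at day 18, so no exact difference between genotypes is given for it. Sectm1b rose by 3.53 and by 6.00. Igf1 fell by 1.90 in knock-in and 2.73 in wild-type glands (difference 0.83, unadjusted p = 0.0478, not called). Without mouse 376, its lowest knock-in virgin, the difference was 0.55 (limma, adjusted p = 0.877), and these are values of its brightest probe only. Cish rose by 3.34 and 2.46 (difference 0.88, unadjusted p = 0.209). Socs2 differed by 0.45 between stages in knock-in and by −0.20 in wild-type glands (unadjusted p = 0.243). This is its brightest probe, with virgin means of 1.43 in knock-in and 2.07 in wild type. The Socs2 probe that differed by 0.29 is annotated to the same transcript as the brightest. It had 0.18 in knock-in and 0.88 in wild-type virgins, and 0.47 and 0.58 at day 18. The Socs2 probes that differed by −0.27 and −0.25 between stages are annotated to other transcripts and read higher in knock-in glands. They had −0.56 and −0.69 against −1.90 and −2.22 in virgins, and −0.83 and −0.94 against −2.61 and −2.89 at day 18. These gaps between genotypes were not tested.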

How the data were processed

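RNA of 24 glands was read on 1-colour Agilent mouse arrays (Cy3), 1 mouse each, on 3 slides, from 100 ng of total RNA per the labels' protocols, although the molecule label reads polyA RNA. The deposited scanner files hold the processed signal intensity of each spot, background-subtracted by Agilent Feature Extraction 12.0.3.2 per the file headers, with probe positions on mm9. The deposited series table holds log10 values, which matched the log10 of each array's processed signal, rounded and with no scaling between arrays, and served as an alternative. The intensities limit precision through the number of arrays.

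Processed signals were set to log2, the 75th percentile of each array was subtracted, outlier spots were left out and spots of a probe were averaged. Probes well above background on 80% of the arrays of at least 1 group were kept (35117), and each of 22382 genes took its brightest probe. Group means of all 24 arrays were fitted with limma 3.58.1 (R 4.3.3), which then gave Benjamini-Hochberg adjusted p-values over all genes. The fit was tested on simulated data with known changes. Within a group the labels tell the mice apart only by a number. The p-values rest on a spread pooled over all 24 arrays, wild type included, which holds differences between mice and between arrays. The median SE of the knock-in stage difference was 0.287 with mouse 376 and 0.202 without it.

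Genes were named by rule: the 15 largest rises and falls among called genes measured in both stages, the 6 largest bounds each way, the 4 members of smallest p of each of 42 lists, 16 genes always named, and the 5 of smallest p for the genotype difference. This gave 207 genes, of which 162 are described and 45 left out, most for length and a few because they are not reported here; other list members are given as examples chosen after their values were seen. A gene not well above background in most arrays of a stage has a lower bound of fold, which sets the bright group's mean against, per array, the lowest signal that counted as well above background or the dim probe itself, whichever was larger. Members and lists were chosen with earlier results of these data known. Promoters are RefSeq's on GRCm38.p6.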

Additional observations from a re-analysis of the deposited data

Results flagged for a closer look

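Of 408 sets of values examined, each a gene or list score in 1 knock-in group, 96 had a highest or lowest gland whose gap to the nearest other was past Dixon's 95% critical value for its group size. Chance alone flags about 1 in 20 sets, and genes of 1 list share their arrays. Mouse 376 gave 61 of these, mouse 198 20 and mouse 184 3. Values are log2 signals, and no explanation of these gaps was tested.

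The virgin mouse 376 stood below its group in the scores of milk fat globule secretion at 1.16 (nearest 2.59), glucose uptake and lactose synthesis at 1.26 (nearest 2.31), amino acid transporters at 0.03 (nearest 0.46), ER chaperones and folding at 1.51 (nearest 2.46) and translocon, signal recognition and vesicle coats at 1.31 (nearest 2.72). Its values for the following were also below the others: growth hormone, IGF and insulin axis at 0.87 (nearest 2.23), fibroblasts and matrix at 3.23 (nearest 4.89), white adipocytes at 3.35 (nearest 5.46), blood and lymphatic endothelium at 0.59 (nearest 1.40) and immediate early genes at 0.01 (nearest 0.82). Further values below the rest were ribosomal proteins at 4.35 (nearest 6.2) and oxidative phosphorylation at 3.19 (nearest 5.02). The virgin mouse 376 stood above its group in the scores of skin and hair at −0.15 (nearest −1.55). The virgin mouse 376 stood above its group in the genes Olah at 0.95 (nearest −4.32), Saa1 at 0.41 (nearest −0.94), Slc34a2 at −3.71 (nearest −6.35), Slc7a5 at −1.17 (nearest −3.32) and Madcam1 at −1.46 (nearest −5.32). Also above the other glands were Lpo at −0.08 (nearest −3.65), Pax5 at −0.64 (nearest −4.33) and Scgb2b20 at −1.47 (nearest −2.79). The virgin mouse 376 stood below its group in the genes Acsm3 at −1.16 (nearest 0.78), Ces1f at 1.00 (nearest 3.40), Abcg2 at 0.27 (nearest 2.07), Mfge8 at 4.40 (nearest 6.26) and Acsl4 at 0.07 (nearest 1.56). The same array was below the others in B4galt1 at 1.94 (nearest 3.70), Galk1 at 0.09 (nearest 1.43), Slc7a1 at −0.13 (nearest 1.10), Slc43a1 at −0.63 (nearest 1.30) and Xbp1 at 3.93 (nearest 5.39). It lay below the group also in Sec11c at −0.34 (nearest 0.46), Ssr4 at 2.86 (nearest 4.59), Sec61b at 3.26 (nearest 4.86), Ssr2 at 3.15 (nearest 5.08) and Id2 at −0.65 (nearest 1.05). Its values for the following were also below the others: Itga6 at 2.30 (nearest 4.31), Esr1 at 0.65 (nearest 2.41), Tbx3 at 0.70 (nearest 2.35) and Stat3 at 1.48 (nearest 3.31). Further values below the rest were Igfbp4 at 0.98 (nearest 1.98), Igf1 at 2.64 (nearest 4.25), Nrg4 at 0.86 (nearest 2.81), Wnt2 at 0.48 (nearest 2.05) and Fn1 at 4.40 (nearest 6.50). Also below the other glands were Lum at 3.36 (nearest 5.10), Adrb3 at 3.58 (nearest 5.50), Plin1 at 2.76 (nearest 4.96), Ebf2 at −0.63 (nearest 1.38) and Vwf at 1.46 (nearest 2.92). The same array was below the others in Cd247 at 0.60 (nearest 2.45), Pigr at 4.10 (nearest 5.93), Tap2 at 2.23 (nearest 4.30), Plat at 0.59 (nearest 1.39) and C1s1 at 2.87 (nearest 4.16). It lay below the group also in C1ra at 2.13 (nearest 3.69), Rora at 1.24 (nearest 2.82), Cry2 at 1.08 (nearest 3.22), Rpl22l1 at 2.86 (nearest 4.85) and Rpl3 at 4.89 (nearest 6.58). Its values for the following were also below the others: Adipoq at 5.44 (nearest 7.79).

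The virgin mouse 198 stood below its group in the scores of luminal epithelium at −2.6 (nearest 0.57) and acute-phase and antimicrobial secretions at −0.68 (nearest 0.53). The virgin mouse 198 stood above its group in the scores of skeletal muscle at 6.03 (nearest 0.62). The virgin mouse 198 stood below its group in the genes Lalba at −2.76 (nearest −0.46), Slc28a3 at −4.76 (nearest −2.12), Dmbt1 at −1.29 (nearest 3.53), Ido1 at −2.58 (nearest 0.89) and Muc15 at −5.76 (nearest −1.32). Further values below the rest were Slc7a4 at −2.27 (nearest −0.46), Elf5 at −5.46 (nearest −0.36), Esrp1 at −3.64 (nearest −1.12), Cldn7 at −2.94 (nearest −0.41) and Esrp2 at −5.38 (nearest −2.0). Also below the other glands were Lamb3 at −3.35 (nearest −0.52), Ltf at −3.66 (nearest 1.29) and Krt8 at −1.13 (nearest 3.92). The virgin mouse 198 stood above its group in the genes Egf at 0.43 (nearest −2.22), Tpm2 at 6.65 (nearest 3.36), Mb at 1.21 (nearest −1.96) and Acta1 at 8.93 (nearest 3.02).

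The day-18 mouse 184 stood above its group in the scores of brown and beige fat at 0.91 (nearest −0.19). The day-18 mouse 184 stood above its group in the genes Ido1 at −3.67 (nearest −5.96) and Fam25c at −1.40 (nearest −6.24).

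The day-18 mouse 239 stood below its group in the scores of acute-phase and antimicrobial secretions at 1.86 (nearest 2.88). The day-18 mouse 239 stood below its group in the genes Saa2 at 6.86 (nearest 8.51), Wfdc3 at 6.74 (nearest 7.42), Saa1 at 5.74 (nearest 7.85), Ces1f at −2.17 (nearest −0.46) and Slc39a8 at 1.46 (nearest 3.03). The same array was below the others in Cd14 at 5.08 (nearest 5.85) and Adrb3 at 1.60 (nearest 2.75). The day-18 mouse 239 stood above its group in the gene Erbb3 at 3.26 (nearest 2.86).

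The day-18 mouse 211 stood below its group in the genes Chrdl2 at 5.48 (nearest 5.99) and Slc2a1 at 3.06 (nearest 3.74).

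The day-18 mouse 210 stood below its group in the gene Prox1 at −1.99 (nearest −1.37).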

How the results depend on the processing

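Against 5306 genes higher and 4137 lower, 3423 were higher with the 12 knock-in arrays alone. Median scaling gave 2428 higher and 2188 lower, and scaling to the spike-in probes 1372 higher and 11644 lower, with 10.5% of the calls higher against 56.2%. Leaving out 1 array at a time gave 4480 to 6758 higher and 3541 to 5532 lower, the top of both without mouse 376. Array weights gave 6911 and 5876, and the percentile over kept probes, chosen after seeing the data, 4865 and 5305. Normexp background correction gave 5365 and 2867. The difference between genotypes had 0 calls in every setting run. The causes were not tested.

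For single genes, 5983 values kept their direction and side of the threshold over all settings, 174 lost the call, 16 gained it and 3 reversed: Erbb4 (−0.29) and Cd3e (−0.14) with spike-in scaling and Tpm2 (−0.21) within slide 2. With spike-in scaling the medians of 12 lists also turned: lactose synthesis −0.26, amino acid transporters −0.35, chaperones −0.43, translocon −0.08, JAK and STAT −0.70, T cells −0.29, IgA transport −0.26, cell cycle −0.09, clock −0.55, immediate early genes −0.42, skin −0.35 and oxidative phosphorylation −0.74. Within slide 1 cholesterol synthesis had 0.50, and within slide 3 chaperones had −0.11, lymph node stroma 1.45 and oxidative phosphorylation −0.50. Quantile normalization gave 0.10 for the growth hormone axis. Probes above background in every group gave 0.35 for neutrophils and 0.65 for lymph node stroma. Of the genes described, median scaling ended 20 calls: Nsdhl, Galk1, Tbx3, Socs1, Stat3, Erbb4, Vwf, Cd3e, Cd247, Pigr, Ifit3, Mx2, Oas3, Tap2, Per1, Cry2, Tpm2, Mb, Ghr and Krt8. Spike-in scaling ended 13 beside the reversed Erbb4 and Cd3e: Galk1, Erbb3, Gzmb, Cd247, Pigr, Tap2, Ccnb2, Birc5, Per1, Tpm2, Mb, Krt8 and Scgb2b20. The 12 knock-in arrays alone ended 8 (Ucp1, Cd247, Oas3, Tap2, Cry2, Tpm2, Ghr and Krt8), quantile normalization 6 (Ucp1, Socs1, Pigr, Tpm2, Mb and Krt8), normexp 5 (Ucp1, Oas3, Tpm2, Mb and Ttll8), the median over probes 5 (Stat3, Igf1, Vwf, Cd3e and Tpm2), the percentile over kept probes 5 (Erbb4, Cd3e, Tpm2, Mb and Krt8) and no filter 5 (Mx2, Oas3, Tpm2, Mb and Krt8). Array weights ended 3 (Mx2, Oas3 and Krt8). No paired analysis was possible because every mouse number occurs once. Named genes not well above background in most arrays of a stage carry bounds, some beside a fitted difference that is no bound. Wap, Olah, Csn1s2b and Bcl2l15, dim in part of the virgins, carry fitted differences alone. The age of the pregnant mice was not at hand.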
